A study of Homo sapiens with 12 samples.

Results

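The genes described here are CXXC5, a zinc finger protein that binds unmethylated CpG, and 8 genes that write, maintain, oxidise or read cytosine methylation or bind unmethylated CpG, namely CXXC1, TET1, TET2, TET3, DNMT1, DNMT3A, DNMT3B and UHRF1. They were chosen by name, and CXXC5 leads the set because its measured values differ strongly between the groups, so its levels are a description and carry no test. The other members and the lists below were also chosen with earlier results of these data known. Their p-values are therefore not independent of that choice. All 9 genes were found among the 15601 genes of the table over all 12 libraries and in each of the 6 tables that pair groups. CXXC5 was high in only 1 of the 4 groups, DNMT1 was highest in the control cells lacking Axl, and the other 7 genes did not pass the test in any comparison.

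SNU449 is an established human hepatocellular carcinoma (HCC) cell line of mesenchymal-like character, and SNU449-Axl- is its derivative without the receptor tyrosine kinase Axl after CRISPR/Cas9 editing. Both were studied as control (naïve) cells and as cells resistant to regorafenib (Rego), a multikinase inhibitor that was raised stepwise from 50% of the IC50 to 2 times the IC50. All cells were grown in RPMI with fetal bovine serum, and the growth protocol states that Rego was added after each splitting without naming the groups. The 4 groups, control SNU449, resistant SNU449, control Axl- and resistant Axl- cells, held 3 libraries each of 3′-end tags (QuantSeq). The labels number the libraries of a group without naming separate cultures, so all p-values measure the spread between these libraries, which may be technical. Whether the Axl- cells are 1 clone was not given in the sources used here.

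Methyl groups are placed on CpG by DNMT3A and DNMT3B and copied after replication by DNMT1, which UHRF1 recruits to hemimethylated DNA. TET1, TET2 and TET3 oxidise 5-methylcytosine, a step towards unmethylated DNA, and CXXC1 (CFP1) brings the SET1 histone methyltransferase to unmethylated CpG islands. CXXC5 shares the CXXC zinc finger, is induced by BMP signals and restrains canonical Wnt signalling by binding Dishevelled. Methylation itself was not measured in these libraries.

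CXXC5 (ENSG00000171604.12) lies at chr5:139647299-139683882 on the plus strand of GRCh38. The 250 bases before its principal start (chr5:139648099-139648348, plus strand, RefSeq, GRCh38.p14) are shown because they are rich in the dinucleotide that CXXC proteins recognise, with each CpG in capitals.
CXXC5: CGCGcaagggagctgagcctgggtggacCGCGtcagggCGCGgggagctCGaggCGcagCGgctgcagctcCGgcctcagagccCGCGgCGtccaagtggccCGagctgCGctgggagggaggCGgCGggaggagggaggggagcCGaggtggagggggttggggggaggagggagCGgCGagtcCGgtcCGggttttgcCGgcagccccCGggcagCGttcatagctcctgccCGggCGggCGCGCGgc
This stretch held 30 CpG, against a median of 11 over 35116 RefSeq windows of the same length, and 89.1% of those windows held as many or fewer. The 7 windows of CXXC5 ranged from 2 to 33 CpG. In the window nearest the principal start, the other members held between 3 CpG (DNMT3B, whose window lay 17467 bases inside the gene) and 37 CpG (TET3).

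DNMT1 and UHRF1, whose values are described together below, carried a motif of the E2F type at the start. TTTCCCGC, TTTGGCGC, TTTCGCGC and TTTGCCGC were searched on both strands in the 300 bases around each start, and 3.31% of all windows held at least 1 of them. The UHRF1 stretch (chr19:4909251-4909500, plus strand) and 30 bases of DNMT1 (chr19:10194937-10194966, minus strand) are shown with the match in capitals, which begins 14 bases and 2 bases before the respective start.
UHRF1: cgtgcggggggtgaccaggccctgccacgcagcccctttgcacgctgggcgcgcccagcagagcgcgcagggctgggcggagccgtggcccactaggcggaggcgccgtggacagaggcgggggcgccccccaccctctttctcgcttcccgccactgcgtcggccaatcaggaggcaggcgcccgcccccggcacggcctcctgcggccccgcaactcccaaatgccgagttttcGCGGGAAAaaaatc
DNMT1: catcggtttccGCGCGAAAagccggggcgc
Another UHRF1 window held a match as well, and the windows of the other 7 genes held none. A match describes letters and not a bound site.

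AXL checked the labels. Its library values were 727, 941 and 715 in control SNU449 and 35, 53 and 33 in control Axl- cells, a log2 change of -4.29 ± 0.24 (SE) with a limma adjusted p of 2.2e-09. Of the mesenchymal-like markers, 7 of 7 had values, with VIM at the highest mean, while only 4 of 12 hepatocyte markers did, albumin not among them, and of 5 epithelial markers only KRT8 and KRT18. The 2 leukocyte markers with values had mean normalized counts of at most 5.34. A library value is read here as the authors' variance-stabilised level on a linear scale after removal of a preparation effect. It has a floor, so the lowest value of a library was 12 to 18 and the median gene stood at 77 to 81, and the fold change of a low gene is understated. Changes are given on the scale log2(value + 1), and a gene was called where its Benjamini-Hochberg adjusted p over all 15601 genes was under 0.05 in limma. Levels are not compared between genes. In bulk libraries fewer expressing cells and less RNA per cell cannot be told apart.

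CXXC5 stood high in the control SNU449 cells alone. Its library values there were 493, 319 and 589. In resistant SNU449 cells they were 33, 40 and 35. In control Axl- cells they were 34, 32 and 26, and in resistant Axl- cells 56, 76 and 60. Every control SNU449 library thus lay above the other 9 libraries, the resistant Axl- libraries lay above both low groups without overlap, and the low groups overlapped with each other.

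On the log2 scale the mean level of CXXC5 was 8.82 ± 0.45 (SD, n = 3) in control SNU449, 5.20 ± 0.14 in resistant SNU449, 4.98 ± 0.20 in control Axl- and 6.01 ± 0.23 in resistant Axl- cells. The Rego effect, resistant minus control, was -3.62 ± 0.23 (SE) in SNU449 and 1.03 ± 0.23 in Axl- cells. The effect of Axl loss was -3.85 ± 0.23 among control and 0.81 ± 0.23 among resistant cells. The Rego effect thus ran in opposite directions in the Axl-proficient and the Axl-deficient background, by a difference of -4.65 ± 0.33 that was not tested because CXXC5 was chosen for its values.

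The low groups lay close to the floor. Their CXXC5 values were 1.63 to 2.35 times the lowest value of their own library, against 26.6 to 39.3 times in control SNU449 and 3.50 to 4.47 times in resistant Axl- cells. The authors' mean normalized counts, which carry no floor, averaged 6.23 over the control Axl- and resistant SNU449 libraries together, so that the mean of either group in that table could not exceed 12.5. The pairs of resistant Axl- cells with either low group averaged 22.1 and 22.2. The 3 pairs with control SNU449 averaged 223, 245 and 267. In the low groups a weak transcript level and its absence cannot be told apart from library values alone. The mean normalized counts show more, as the average of 6.23 means that some CXXC5 reads were counted there. The nearly equal averages of 22.1 and 22.2 do not place these reads in only the control Axl- or only the resistant SNU449 cells. The counts thus show a low level rather than absence in both low groups. They carry no error between libraries, and group means of CXXC5 were not solved from them.

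The size of the change depended on the table. In the tables made from the compared groups alone, with a higher floor, the Rego effect on CXXC5 was -2.94 in SNU449 and 0.67 in Axl- cells, and that of Axl loss -3.20 among control and 0.50 among resistant cells. Each kept its sign. The first of these tables gave 444, 330 and 493 in control against 50, 67 and 45 in resistant SNU449 cells, again without overlap.

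**Figure D1:**
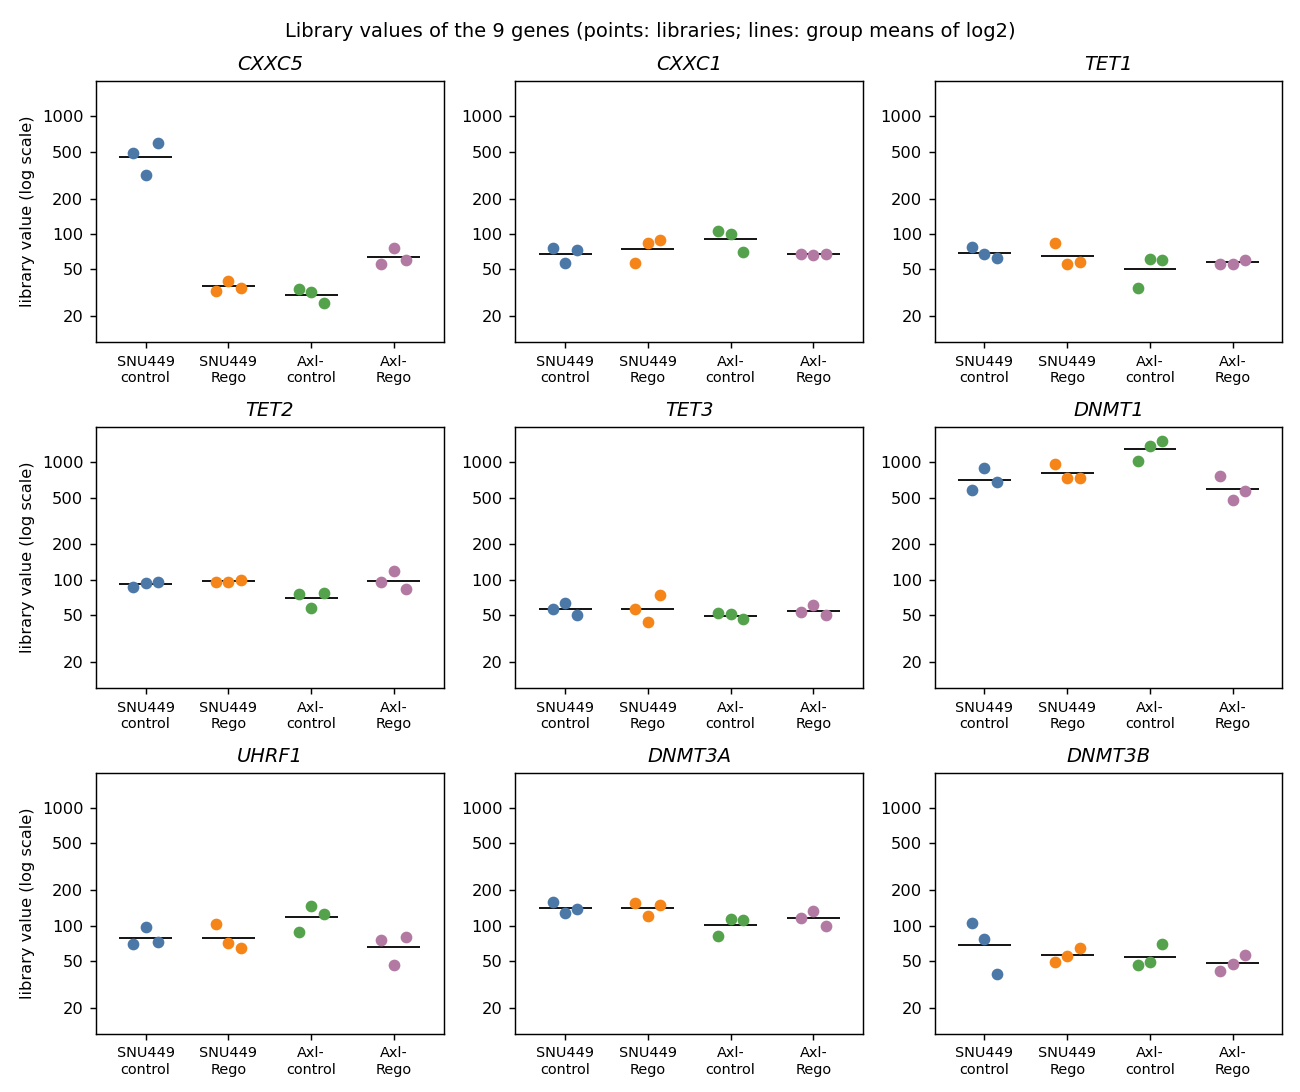
Library values (log axis) of the 9 genes in the 4 groups, with a point for each library and a line at the group mean taken on the log2 scale. CXXC5 stands at 319 to 589 in control SNU449 and at 26 to 76 in the other 9 libraries, and DNMT1 is highest in control Axl- cells, at 1032 to 1527.

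A mesenchymal-like marker, FN1, had the signs of CXXC5 in all 4 comparisons between groups. Its resistant Axl- libraries overlapped with control SNU449, whereas those of CXXC5 did not. FN1 (fibronectin) had library values of 2491, 1437 and 2923 in control SNU449, 336, 453 and 650 in resistant SNU449, 559, 377 and 463 in control Axl- and 2543, 4850 and 1351 in resistant Axl- cells. Its Rego effect was -2.24 ± 0.36 in SNU449 (limma adjusted p = 6.9e-04) and 2.47 ± 0.36 in Axl- cells (5.4e-04). Over the whole list of 7 markers, 2 were called lower with Rego resistance in SNU449, FN1 and ZEB2 (-1.31 ± 0.20, limma adjusted p = 4.5e-04). In Axl- cells 1 was called higher, FN1. The list did not move as FN1 did in Axl- cells, where 3 of 7 markers lay above 0 with a median of -0.19. In SNU449 2 of 7 lay above 0, with a median of -0.45. The summed mean value ranged from 20437 to 23690 between the groups. The hepatocyte marker FGB was higher with resistance in Axl- cells, at 36, 63 and 72 against 189, 547 and 294 (2.49 ± 0.38). In resistant SNU449 cells it had 41, 22 and 24, near the floor, and its change upon Axl loss among resistant cells was 3.44 ± 0.38. FGB may have had values mainly through the group where it is high, so no test of it is given. The hepatocyte list summed to between 97 and 438. The epithelial marker KRT8 rose upon Axl loss from 159, 140 and 216 to 320, 284 and 276 among control cells (0.79 ± 0.22, limma adjusted p = 0.033, lost without any of 5 libraries) and from 133, 208 and 140 to 542, 444 and 439 among resistant cells (1.58 ± 0.22, 2.5e-04). The 2 measured epithelial markers summed to between 1061 and 1742. The part of these marker genes in the values of CXXC5 and DNMT1 was not tested.

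Changes of the genes around CXXC5 were smaller than its own. As CXXC5 was chosen for its strongly differing values, this is a description. Among genes of chromosome 5 with a mean normalized count of at least 20, the 8 nearest on either side reached from 1104 kb upstream to 955 kb downstream. UBE2D2, a ubiquitin-conjugating enzyme 18.9 kb upstream, had a Rego effect in SNU449 of 0.08 and an effect of Axl loss among control cells of -0.08. PURA, a nucleic acid-binding protein 424 kb downstream, had 0.03 and -0.12. The 16 neighbours ranged from -1.08 (SNHG4) to 0.80 (HBEGF) for the Rego effect in SNU449 and from -0.41 (DNAJC18) to 0.70 (HBEGF) for Axl loss among control cells. SNHG4, a noncoding host gene of small RNAs, was the 1 neighbour called for the Rego effect in SNU449 (adjusted p = 0.0043, limma) and for the difference between backgrounds (-1.14, adjusted p = 0.036). Its signs were those of CXXC5 in all 4 comparisons between groups, with 0.057 for the Rego effect in Axl- cells and, for Axl loss, -0.40 among control and 0.74 among resistant cells, of which none was called. For Axl loss among control cells the lowest adjusted p of a neighbour was 0.19 (HBEGF). The antisense gene CXXC5-AS1 overlaps CXXC5, and the strand setting of the counting was not given in the sources used here, so reads of both cannot be told apart.

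**Figure D2:**
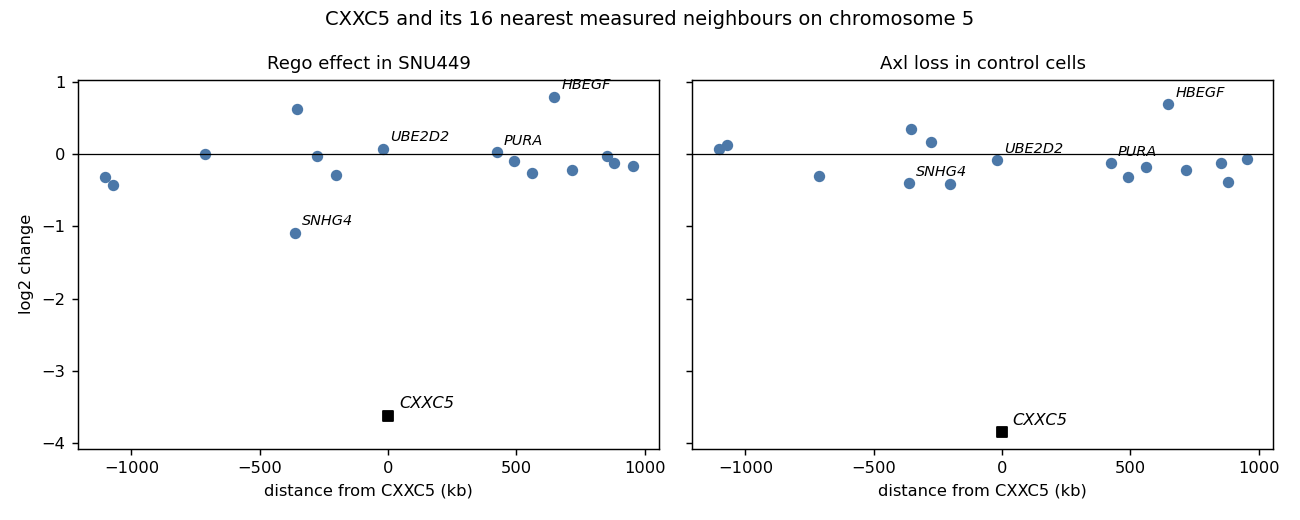
Log2 change against distance from CXXC5 in kb for the 16 nearest genes on chromosome 5 (blue) and CXXC5 (black square), for the Rego effect in SNU449 (left) and Axl loss among control cells (right). The neighbours lie between -1.08 and 0.80, and CXXC5 lies at -3.62 and -3.85.

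Over the 4 group means, each gene centred on its own average, the genes most like CXXC5 were VCAM1, APOL1, NHS, TMPRSS15 and PLPP4. Their root mean square differences from it were 0.32 to 0.56 on the log2 scale, against a median of 1.54 over 10368 genes with a mean normalized count of at least 20. VCAM1, a cell adhesion molecule, had values of 550, 556 and 1886 in control SNU449, 44, 68 and 38 in resistant SNU449, 58, 33 and 38 in control Axl- and 174, 197 and 90 in resistant Axl- cells. APOL1, an apolipoprotein, had 1029, 1038 and 1150, then 57, 82 and 59, then 127, 105 and 129, and lastly 220, 184 and 186. Both were highest in control SNU449 and next in resistant Axl- cells. As these genes were picked for the smallest differences from CXXC5, the small differences and the shared order follow from the choice and are a description. PLPP4 had the same values of 18, 18 and 29 in each of the other 3 groups, against 195, 198 and 49 in control SNU449. The repeated values lie near the floor. TMPRSS15 and NHS likewise had only 22 to 45 and 26 to 54 in the other 3 groups. With mean normalized counts of 36.2, 46.8 and 56.7, PLPP4, TMPRSS15 and NHS may have passed the count filter only through the group where they are high.

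DNMT1, the maintenance methyltransferase (ENSG00000130816.17, chr19:10133342-10231286, minus strand), was the 1 tested member that passed. Its library values were 577, 895 and 674 in control and 961, 729 and 735 in resistant SNU449 cells. They were 1032, 1385 and 1527 in control and 760, 481 and 574 in resistant Axl- cells. All control Axl- libraries lay above the other 9 libraries, and the other 3 groups overlapped.

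Upon Axl loss among control cells DNMT1 rose by 0.88 ± 0.23 (log2 ± SE, 95% interval 0.40 to 1.36, limma adjusted p = 0.024), the 1 called of 8 tested members where 7.45% of all genes were called. With Rego resistance in Axl- cells it fell by 1.12 ± 0.23 (95% interval of the change -1.61 to -0.64, adjusted p = 0.0081), again 1 of 8 members, where 4.35% of all genes were called. The Rego effect in SNU449 was 0.19 ± 0.23 (adjusted p = 0.70) and the effect of Axl loss among resistant cells -0.43 ± 0.23 (adjusted p = 0.34). The difference of the Rego effect between SNU449 and Axl- cells was 1.31 ± 0.32 (adjusted p = 0.021), called for DNMT1 alone of the 8 members, where 5.87% of all genes were called. Both called comparisons use the control Axl- libraries. In the tables made from the compared groups alone DNMT1 was called as well, at 1.02 (adjusted p = 0.027) where 4.3% of genes were and at -0.99 (adjusted p = 0.0083) where 5.73% were.

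These calls depended on single libraries. The Rego effect in Axl- cells was not called without control Axl- replicate 2 (-1.06, adjusted p = 0.069) or 3 (-0.97, 0.052) or without resistant Axl- replicate 2 (-0.92, 0.10). The effect of Axl loss among control cells was not called without control SNU449 replicate 1 (0.69, adjusted p = 0.14) or 3 (0.84, 0.064), nor without control Axl- replicate 2 (0.82, 0.12) or 3 (0.72, 0.12). The difference was not called without control SNU449 replicate 1 (1.12), resistant SNU449 replicate 1 (1.14), control Axl- replicate 2 (1.25) or 3 (1.16), or resistant Axl- replicate 2 (1.11) or 3 (1.28), at adjusted p of 0.057 to 0.087. The direction was the same throughout.

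UHRF1, the partner that brings DNMT1 to replicated DNA (ENSG00000276043.5, chr19:4903080-4962154, plus strand), had 69, 98 and 73 in control and 103, 71 and 64 in resistant SNU449 cells. It had 88, 146 and 126 in control and 75, 46 and 80 in resistant Axl- cells. The control Axl- libraries lay above the resistant ones but overlapped with control SNU449. The Rego effect in Axl- cells was -0.84 ± 0.26 (limma adjusted p = 0.077) and the effect of Axl loss among control cells 0.57 ± 0.26 (adjusted p = 0.22). The former passed without the replicate number in the fit (adjusted p = 0.039), where 9.95% of all genes were called, and without control Axl- replicate 1 (-1.12, adjusted p = 0.032).

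The authors' mean normalized counts gave a view without the floor. Group means were solved by non-negative least squares from the means of the 6 pair tables and the table over all libraries, with a largest misfit of 0.94% for DNMT1 and 0.89% for UHRF1. The solved means of DNMT1 were 676 in control SNU449, 727 in resistant SNU449, 1369 in control Axl- and 741 in resistant Axl- cells. Those of UHRF1 were 51.7, 51.9, 100.3 and 53.4. Control Axl- cells were highest for both genes, 2.03-fold above the lowest group for DNMT1 and 1.94-fold for UHRF1, and also for CXXC1, at 72.1 against 41.0 (1.76-fold). Ratios of highest to lowest group were 1.86 for DNMT3B (highest in control SNU449), 1.75 for TET2 (highest in resistant Axl-) and 1.27 to 1.48 for TET1, TET3 and DNMT3A. These values carry no error between libraries.

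The de novo methyltransferases were not called in any comparison. DNMT3A (ENSG00000119772.19, chr2:25227855-25342590, minus strand) had 160, 127 and 139 in control and 154, 120 and 150 in resistant SNU449 cells. It had 82, 113 and 111 in control and 115, 134 and 99 in resistant Axl- cells. All control Axl- libraries lay below those of control SNU449, with a change of -0.48 ± 0.21 (limma adjusted p = 0.18).

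DNMT3B (ENSG00000088305.19, chr20:32762385-32809359, plus strand) had 105, 77 and 39 in control SNU449 cells. It ranged from 49 to 64 in resistant SNU449, from 46 to 70 in control Axl- and from 41 to 56 in resistant Axl- cells, and the groups overlapped. The Rego effect in SNU449 was -0.29 ± 0.28 (limma adjusted p = 0.62) and that of Axl loss among control cells -0.33 ± 0.28 (adjusted p = 0.57). Without control SNU449 replicate 3, its lowest library, both were called, at -0.81 (adjusted p = 0.035) and -0.86 (0.025).

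The TET dioxygenases did not pass the test either. TET2 (ENSG00000168769.14, chr4:105145875-105279816, plus strand) had 87, 93 and 95 in control and 96, 95 and 99 in resistant SNU449 cells. It had 76, 58 and 77 in control and 96, 118 and 84 in resistant Axl- cells. The control Axl- libraries were the lowest, without overlap with another group. The effect of Axl loss among control cells was -0.39 ± 0.20 (limma adjusted p = 0.26) and the Rego effect in Axl- cells 0.49 ± 0.20 (adjusted p = 0.17).

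TET1 (ENSG00000138336.9, chr10:68560337-68694487, plus strand) ranged from 62 to 78 in control SNU449, 56 to 83 in resistant SNU449, 35 to 61 in control Axl- and 56 to 60 in resistant Axl- cells. All control Axl- libraries lay below those of control SNU449 (-0.44 ± 0.23, limma adjusted p = 0.28). TET3 (ENSG00000187605.16, chr2:73984910-74108176, plus strand) stayed between 44 and 74 in all 12 libraries, with overlap between all groups.

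CXXC1 (ENSG00000154832.16, chr18:50282343-50287839, minus strand) ranged from 57 to 76 in control SNU449, 57 to 88 in resistant SNU449, 70 to 106 in control Axl- and 66 to 68 in resistant Axl- cells. The resistant Axl- libraries lay below the control ones (-0.42 ± 0.22, limma adjusted p = 0.33), and the other groups overlapped.

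For the Rego effect in SNU449, 0 of the 8 members other than CXXC5 were called in limma, where 7.81% of all genes were, and 0 had an unadjusted p under 0.05. Their changes lay between -0.29 and 0.19, and the 95% intervals reached from -0.89 (DNMT3B) to 0.67 (DNMT1). For Axl loss among resistant cells 0 of 8 were called, where 4.37% of all genes were, again with 0 at an unadjusted p under 0.05 and changes of -0.43 to 0.03. By library values, 0 of 8 members were without overlap in either of these comparisons, where 27.9% and 28% of all genes were. Without overlap were 4 of 8 for the Rego effect in Axl- cells, where 29.1% of all genes were, and 4 of 8 for Axl loss among control cells, where 27.9% were.

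**Figure D3:**
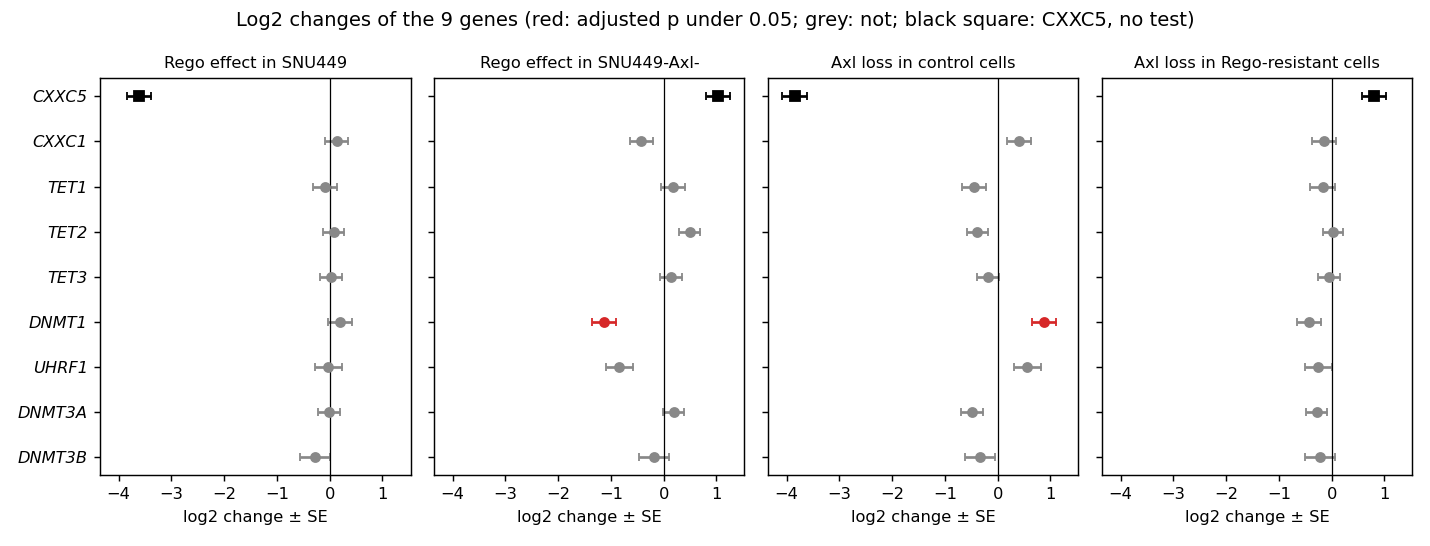
Log2 change with its standard error for the 9 genes in the 4 comparisons between groups, red where the adjusted p was under 0.05, grey where it was not and a black square for CXXC5, which was not tested. DNMT1 is called at -1.12 and 0.88, and the 7 genes other than CXXC5 and DNMT1 lie between -0.84 and 0.57.

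Genes that work with the members were read in lists, against shares of all genes called higher and lower of 4.31% and 3.5% for the Rego effect in SNU449, 2.54% and 1.81% in Axl- cells, 4.03% and 3.43% for Axl loss among control cells, 2.44% and 1.93% among resistant cells, and 2.95% and 2.92% for the difference. Of 19 measured partners of maintenance and de novo methylation, 2 fell and 0 rose with Rego resistance in Axl- cells, with a list median of -0.11 beside 0.01 over all genes. USP7, a deubiquitinase that acts on DNMT1 and UHRF1, went from 607, 569 and 627 to 364, 340 and 287 (-0.87 ± 0.18, limma adjusted p = 0.0082). TRIM28, the corepressor KAP1, went from 757, 763 and 699 to 385, 419 and 424 (-0.85 ± 0.18, adjusted p = 0.0088). Neither overlapped between the groups. The call of USP7 was lost without resistant Axl- replicate 3 (adjusted p = 0.075) and that of TRIM28 without control Axl- replicate 2 or resistant Axl- replicate 1, at up to 0.073. Both were also the 2 genes called lower upon Axl loss among resistant cells (USP7 -0.70, TRIM28 -0.80), a comparison that shares the resistant Axl- libraries, and lost those calls without any of 6 and 4 libraries. With spike-in centring these changes were -0.41 for USP7 and -0.50 for TRIM28.

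In SNU449, 1 of the 19 partners rose and 1 fell with Rego resistance. LIG1, which joins nicks in replicated DNA, went from 86, 92 and 84 to 156, 149 and 153 (0.80 ± 0.19, limma adjusted p = 0.012), a call lost without resistant SNU449 replicate 1 (adjusted p = 0.0502). CDCA7L, a relative of the chromatin remodelling cofactor CDCA7, went from 341, 335 and 318 to 169, 196 and 154 (-0.94 ± 0.19, adjusted p = 0.0049) and was called whichever library was left out. LIG1 was also the 1 partner called upon Axl loss among control cells, at 148, 122 and 162 in control Axl- cells (0.71 ± 0.19, adjusted p = 0.027, lost without any of 5 libraries). The difference of the Rego effect was called higher for TRIM28 (1.20), LIG1 (1.09) and USP7 (0.86), and TRIM28 alone kept this call without each library in turn. LIG1 (limma adjusted p = 0.019) lost it without any of 4 libraries. USP7, at an adjusted p of 0.04996, lost it without any of the 12.

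Among 12 measured genes of oxidation and base excision, NEIL3 changed in opposite directions in the backgrounds. NEIL3, a glycosylase for oxidised bases, had 99, 114 and 102 in control and 59, 57 and 61 in resistant SNU449 cells. It had 49, 46 and 50 in control and 79, 75 and 74 in resistant Axl- cells. It was thus highest in control SNU449 and lowest in control Axl- cells, with no overlap between any groups. The changes were -0.82 ± 0.18 with Rego resistance in SNU449 (limma adjusted p = 0.0067) and -1.10 ± 0.18 upon Axl loss among control cells (adjusted p = 8.1e-04). In Axl- cells the Rego effect was 0.64 ± 0.18 (adjusted p = 0.046, lost without any of 8 libraries), and the difference between backgrounds was -1.46 ± 0.25 (adjusted p = 0.0017).

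Of the same list, 2 genes rose and 1, NEIL3, fell with Rego resistance in SNU449. The risers were the stress-induced GADD45A (1.16 ± 0.33, limma adjusted p = 0.038) and GADD45B (1.12 ± 0.32, adjusted p = 0.041), whose calls were lost without any of 6 and 5 libraries. GADD45A overlapped between the groups, at 136, 248 and 113 against 315, 227 and 600. PARP1, a sensor of DNA breaks, was the 1 gene that rose upon Axl loss among control cells, from 544, 607 and 513 to 768, 945 and 1053 (0.72 ± 0.19, adjusted p = 0.025), and XRCC1, a repair scaffold, was the 1 that fell among resistant cells (-0.85 ± 0.19, adjusted p = 0.017, and -0.56 with spike-in centring). Each of these calls was lost without any of 4 libraries. The difference between backgrounds was called for XRCC1 (1.01, adjusted p = 0.036) and PARP1 (0.94, 0.046), either of which lost it without any of 10 libraries.

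ZBTB38 was the 1 of 11 measured methyl-CpG readers that was called in limma, and it fell with Rego resistance in either background. It went from 713, 538 and 530 to 209, 240 and 227 in SNU449 (-1.38 ± 0.21, adjusted p = 3.7e-04) and from 416, 520 and 670 to 274, 252 and 211 in Axl- cells (-1.10 ± 0.21, adjusted p = 0.0049). Both calls were kept without each library in turn. Of 7 other genes with a CXXC domain, CXXC4 was the 1 called. It is a close relative of CXXC5 that likewise binds Dishevelled, and it rose with Rego resistance in Axl- cells from 28, 31 and 37 to 56, 63 and 48 (0.78 ± 0.18, adjusted p = 0.020, lost without any of 4 libraries), values near the floor. Of 10 measured SET1 complex genes, which work with CXXC1, 0 were called in limma in any comparison, 3 had an unadjusted p under 0.05 upon Axl loss among control cells, and 1 had such a p upon Axl loss among resistant cells and 1 with Rego resistance in Axl- cells. Without the replicate number in the fit 1 was called for Axl loss among control and 1 among resistant cells. Of all 15601 genes, 2182 and 1503 were called there.

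The list around CXXC5 held 23 measured genes of Wnt and BMP signalling. With Rego resistance 4 rose and 2 fell in SNU449, and 1 rose and 3 fell in Axl- cells. Upon Axl loss 5 rose and 0 fell among control cells, and 1 rose and 3 fell among resistant cells. ID3, a BMP-induced inhibitor of basic helix-loop-helix factors, had 86, 114 and 153 in control and 501, 411 and 283 in resistant SNU449 cells. It had 420, 519 and 324 in control and 175, 130 and 225 in resistant Axl- cells. The control SNU449 libraries overlapped with the resistant Axl- ones, and both lay below the other groups. Its Rego effect was 1.75 ± 0.27 in SNU449 (limma adjusted p = 4.4e-04) and -1.26 ± 0.27 in Axl- cells (adjusted p = 0.012), with a difference of 3.01 ± 0.38 (adjusted p = 1.3e-04). The call in Axl- cells was lost without control Axl- replicate 2 or resistant Axl- replicate 1 or 2, at up to 0.14.

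BMP4, a ligand of this pathway, rose upon Axl loss among control cells from 170, 93 and 191 to 453, 325 and 304 (1.29 ± 0.28, limma adjusted p = 0.0068, lost without control SNU449 replicate 2 at 0.064). It fell with Rego resistance in Axl- cells to 104, 151 and 116 (-1.53 ± 0.28, adjusted p = 0.0032). RNF43, a membrane E3 ligase that removes Wnt receptors, rose with Rego resistance in SNU449 from 27, 23 and 23 to 54, 75 and 60 (1.33 ± 0.19, adjusted p = 2.6e-04). The difference between backgrounds was called for BMP4 (2.29 ± 0.39) and RNF43 (1.73 ± 0.27). ID2, a relative of ID3, fell with Rego resistance in SNU449 from 189, 254 and 348 to 79, 89 and 73 (-1.66 ± 0.25, adjusted p = 3.1e-04). DKK1, a secreted Wnt antagonist, fell with Rego resistance in Axl- cells from 4643, 2740 and 4577 to 884, 1532 and 556 (-2.09 ± 0.39, adjusted p = 0.0041). NKD2, an inhibitor that binds Dishevelled, rose upon Axl loss among control cells from 26, 16 and 23 to 52, 58 and 56 (1.34 ± 0.21, adjusted p = 6.0e-04). The lower values of RNF43 and NKD2 lie near the floor.

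**Figure D4:**
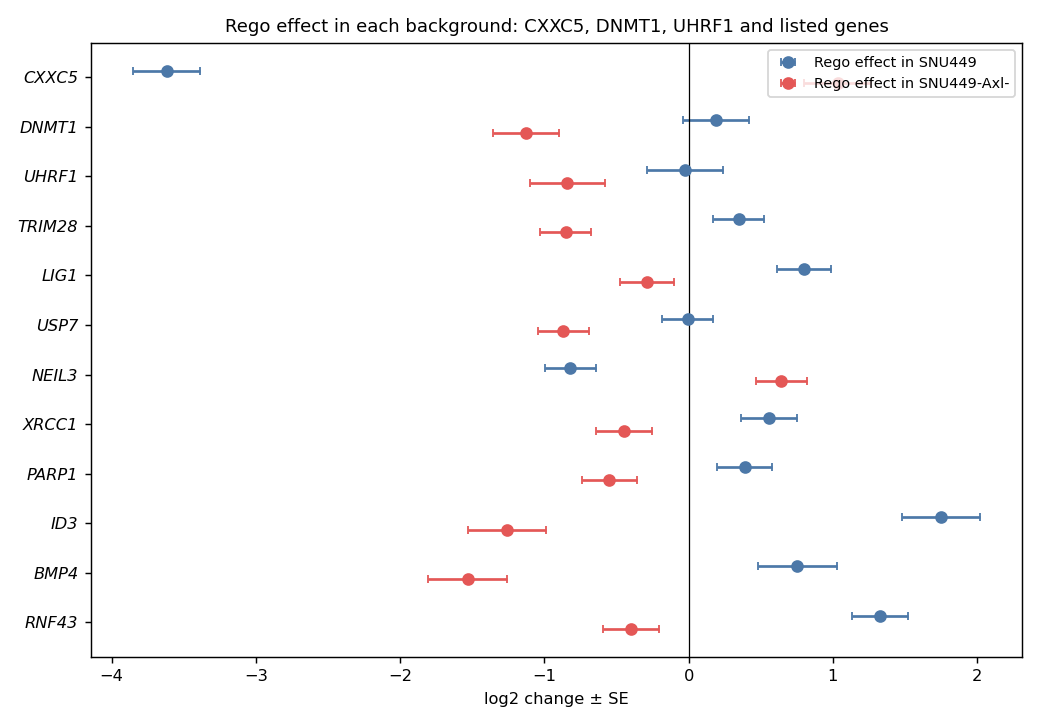
Rego effect as log2 change with its standard error in SNU449 (blue) and SNU449-Axl- cells (red) for CXXC5, DNMT1, UHRF1 and 9 listed genes called in the difference between backgrounds. CXXC5 lies at -3.62 and 1.03 and ID3 at 1.75 and -1.26, while DNMT1 lies at 0.19 and -1.12.

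Genes of methyl donors and of 2-oxoglutarate, a cosubstrate of TET enzymes, numbered 23. IDH2, the mitochondrial isocitrate dehydrogenase, fell upon Axl loss among control cells from 344, 248 and 372 to 154, 140 and 164 (-1.05 ± 0.21, limma adjusted p = 0.0044), a call kept without each library. MTRR, which reactivates methionine synthase, rose there (0.85 ± 0.21, adjusted p = 0.016, lost without any of 3 libraries). SDHA, a subunit of succinate dehydrogenase, was the 1 gene that rose with Rego resistance in SNU449 (0.80 ± 0.21, adjusted p = 0.025, lost without any of 3). In Axl- cells the 2 genes called lower were IDH3G (-1.09, adjusted p = 0.045) and MAT2A, which makes S-adenosylmethionine (-0.74, adjusted p = 0.044), lost without any of 7 and 8 libraries.

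DNMT1 and UHRF1 are transcribed mainly in dividing cells, and 27 genes of S phase and proliferation are given beside them. With Rego resistance in Axl- cells, where DNMT1 fell, 3 of 27 were called lower and 0 higher. These were MCM7 (-0.94), PLK1 (-0.79) and BUB1 (-0.77). Only 2 of 27 lay above 0, with a list median of -0.39, and -0.25 with spike-in centring. An unadjusted limma p under 0.05 was found for 10, and 6 were called without the replicate number, where 1552 of all 15601 genes were. In SNU449 2 were called lower, MCM6 (-0.90) and CCNB1 (-0.72), and 7 of 27 lay above 0. The median was -0.32, and -0.27 with spike-in centring. Here 6 had an unadjusted limma p under 0.05, and 2 were called without the replicate number, where 2175 of all genes were. Upon Axl loss among control cells, where DNMT1 rose, 0 of 27 were called in limma and 12 of 27 lay above 0. Without the replicate number 1 was called, where 2182 of all genes were, and 1 had an unadjusted p under 0.05. The median there was -0.06, and 0.15 with spike-in centring. Each of the 5 named genes lost its call without any of at least 2 libraries, and the part of the 27 genes in the DNMT1 values was not tested.

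Of 30 germline genes known to be silenced by promoter methylation, only 2 had values. They moved in opposite directions with Rego resistance in SNU449 and upon Axl loss among resistant cells, with 1 of 2 above 0 in each. PAGE1, which is described here, therefore does not stand for the list. PAGE1, of a cancer-testis antigen family, had 46, 26 and 28 in control and 303, 479 and 202 in resistant SNU449 cells. It had 19, 18 and 28 in control and 22, 27 and 39 in resistant Axl- cells. It was thus high in resistant SNU449 cells alone. As the other 9 libraries lay at 18 to 46, near the floor, PAGE1 may have had values only through the group where it is high, and no test of it is given.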

How the data were processed

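Poly-A was trimmed with cutadapt 4.0 and reads were aligned to GRCh38 plus spike-in sequences with STAR 2.5.3a, giving counts per gene on a GENCODE annotation, by the authors. Low genes and duplicate identifiers were removed. The deposited library columns are a score of whole numbers with a floor and equal means per replicate number, read from the methods and the values as the variance-stabilised level after removal of the preparation date effect on a linear scale. Being no counts, they keep no library depth. The mean normalized count beside them is a signal from the authors' DESeq2 run. The columns with the authors' fold changes, p-values and group averages were not used.

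The 12 libraries were fitted in limma 3.58.1 (R 4.3.3) on log2(value + 1), two-sided, over all 15601 genes. The model held 4 groups and the replicate number as a block, since the study modelled the preparation date. The labels do not give that date. The replicate number was put in its place because the deposited values have equal means per replicate number. The fit was tested on simulated data, and summaries used pandas 2.3.3. Members and lists were chosen with earlier results of these data known. Named were the 9 members, AXL, at most the 3 called genes of largest change per list and comparison, and the 5 genes most like CXXC5. UBE2D2, PURA, SNHG4, HBEGF and DNAJC18 are named outside this rule, by position or as the extremes of the neighbours. Promoter windows were taken from RefSeq and matched all 9 members. Alternatives were no block, the pair tables, the other table over 12 libraries, pseudocounts of 0 and 10, genes with a mean normalized count of at least 20, upper-quartile rescaling, spike-in centring and leaving out each library.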

Additional observations from a re-analysis of the deposited data

Results flagged for a closer look

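The Rego effect on DNMT1 differed between the backgrounds by 1.31 on the log2 scale (limma adjusted p = 0.021), being 0.19 in SNU449 and -1.12 in SNU449-Axl- cells. The Rego effect on CXXC5 differed by -4.65, as every resistant library lay below every control library in SNU449 and above every control library in SNU449-Axl- cells. The CXXC5 difference was not tested.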

How the results depend on the processing

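The number of members called stayed as reported under the pair tables, the other table over 12 libraries, both pseudocounts, the count filter, upper-quartile rescaling and spike-in centring. The pair tables could not give the difference between backgrounds. Without the replicate block 2 members instead of 1 were called for the Rego effect in SNU449-Axl- cells, UHRF1 being added, and the genes called among all genes rose from 1219 to 2175, 678 to 1552, 1163 to 2182, 682 to 1503 and 916 to 1826 in the order Rego effect in SNU449 and in SNU449-Axl- cells, Axl loss among control and among resistant cells, and difference. Same-numbered libraries correlated at a median of -0.40 in their deviations from the group means (17 of 18 pairs below 0). The deposited values have equal means per replicate number, which by itself makes these correlations negative, so whether the numbers pair the libraries cannot be read from them. The pair tables called 603, 603 and 1160 genes for the Rego effect in SNU449 and for Axl loss among control and resistant cells, and spike-in centring 1799 for the last. Leaving out single libraries gave 740 to 1299, 205 to 891, 540 to 1275, 219 to 826 and 523 to 922 genes in the order above. Spike-in centring moved the median change of all genes to 0.05, 0.14, 0.21, 0.31 and -0.10 in the order above. It turned the sign of DNMT3A (0.039) and UHRF1 (0.023) for the Rego effect in SNU449, of TET3 (0.028) for Axl loss among control cells, and among resistant cells of CXXC1 (0.14), TET1 (0.12), TET3 (0.24), DNMT3A (0.0075), DNMT3B (0.071) and UHRF1 (0.042), none of them called. It also moved by over 1.5 times, for Axl loss among control cells, CXXC1 to 0.61, TET1 to -0.24, TET2 to -0.19, DNMT3A to -0.28 and DNMT3B to -0.13, among resistant cells TET2 to 0.32 and DNMT1 to -0.14, and for the Rego effect in SNU449-Axl- cells TET1 to 0.32, TET3 to 0.27, DNMT3A to 0.33 and DNMT3B to -0.042. For the Rego effect in SNU449 it moved TET1 to -0.046, TET2 to 0.12 and TET3 to 0.064, and for the difference TET3 to -0.21 and DNMT3B to -0.20. Leaving out single libraries gave 0 to 1 called members for the Rego effect in SNU449, 0 to 2 in SNU449-Axl- cells, 0 to 1 for Axl loss among control cells, 0 to 0 among resistant cells and 0 to 1 for the difference. These signs turned without some library, with the following ranges. For the Rego effect in SNU449, CXXC1 ranged from -0.040 to 0.39, TET1 from -0.33 to 0.044, TET3 from -0.24 to 0.26, DNMT1 from -0.0024 to 0.42, DNMT3A from -0.11 to 0.14, DNMT3B from -0.81 to 0.12 and UHRF1 from -0.29 to 0.18. In SNU449-Axl- cells TET1 ranged from -0.16 to 0.36, DNMT3A from -0.012 to 0.33 and DNMT3B from -0.33 to 0.065. For Axl loss among control cells DNMT3B ranged from -0.86 to 0.082, and among resistant cells CXXC1 from -0.41 to 0.012, TET1 from -0.31 to 0.070, TET2 from -0.15 to 0.18, TET3 from -0.30 to 0.20 and UHRF1 from -0.44 to 0.078. For the difference TET1 ranged from -0.51 to 0.066, TET3 from -0.37 to 0.12, DNMT3A from -0.34 to 0.0029 and DNMT3B from -0.64 to 0.30. The cause was not tested. The precision is limited by 3 libraries per group. The median standard error of the members was 0.226 for a comparison between groups and 0.319 for the difference, and changes as large as -0.84 (UHRF1) were not called.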
